A study of Caenorhabditis elegans with 11 samples.

Results

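Adults of C. elegans aged 10 days were compared with adults aged 5 days by small RNA sequencing. The 3 libraries of each age were taken by the age in their labels, which made 6 of the 11 libraries of the series. The other 5 came from animals of 1 day (3 libraries) and 20 days (2 libraries). Every library was made from total RNA of whole hermaphrodites of N2, the standard wild-type laboratory strain, and the labels name no mutation, drug or diet that set the ages apart. The sources used here do not give the stage from which days were counted, the number of animals in a library or how progeny were kept away from ageing mothers. Of the 250 microRNA (miRNA) hairpins in the table, 145 had enough counts to be tested. Another 65 had a count in at least 1 of the 6 libraries, never above 12, and were not tested.

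A miRNA is cut out of a hairpin precursor and loaded into an Argonaute protein, which it guides to messenger RNAs by pairing through its seed, the bases near its 5′ end. miRNAs with 1 seed are grouped as a family because they can bind the same sites. In C. elegans the first miRNAs found, lin-4 and let-7, time the larval stages, and several others lengthen or shorten adult life when they are lost. N2 hermaphrodites have largely stopped laying self-fertilized eggs after the first days of adulthood. Because the stage from which days were counted is not given, it is not known whether the younger animals compared here were past egg laying.

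The 6 libraries held between 1032059 and 1660390 counts, of which at least 99.99% fell on the tested hairpins. Counts of libraries of 1 age differed by more than sampling noise, with a chi-square per degree of freedom of at least 30.2 in the 6 same-age pairs. That is more than sequencing 1 library again would give. It cannot tell separate cultures from separate libraries of 1 RNA sample. Across hairpins, which are no replicates of each other, Pearson's r of log2 CPM was 0.993 to 0.997 within an age and 0.984 to 0.989 between the ages. Levels are given as CPM, counts scaled to a common library total with TMM factors, which sets a common scale from hairpins of moderate change. No spike-in is named, so a level is a share of its library's miRNAs. Nothing in the labels says that replicates were grown separately, and the p-values therefore reflect the spread of these libraries only, which may be technical.

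The scaling of the libraries moved the balance of rises and falls. With TMM, the median log2 change of all 145 hairpins was 0.19, whereas it was -0.01 with RLE size factors, -0.02 with total counts and 0.41 with upper quartiles. By default edgeR took replicate 2 of the 20-day group as the TMM reference. When a 5- or 10-day library served as reference, an alternative chosen after the data were seen, the median lay between -0.02 and 0.03. On the TMM scale of this section the median hairpin therefore lies at 0.19 and not at 0, and the change relative to that median is added for the main hairpins. In edgeR's quasi-likelihood test, 54 hairpins (37.2%) passed an adjusted p (Benjamini-Hochberg) of 0.05. Of these, 42 hairpins (29.0%) were higher at 10 days and 12 (8.28%) were lower. The split was 26 to 28 with RLE, 25 to 29 for total counts and 65 to 9 by upper quartiles. Changed in the same direction with all 4 scalings were 25 higher (17.2%) and 9 lower (6.21%), 34 of 145 (23.4%), and these are meant by calls that held with 4 scalings. All 34 had no overlap between the ages in TMM-scaled CPM, which was true of 66 of all 145 (45.5%). Over 2-fold changes at the same threshold were found for 13 hairpins (8.97%).

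**Figure D1:**
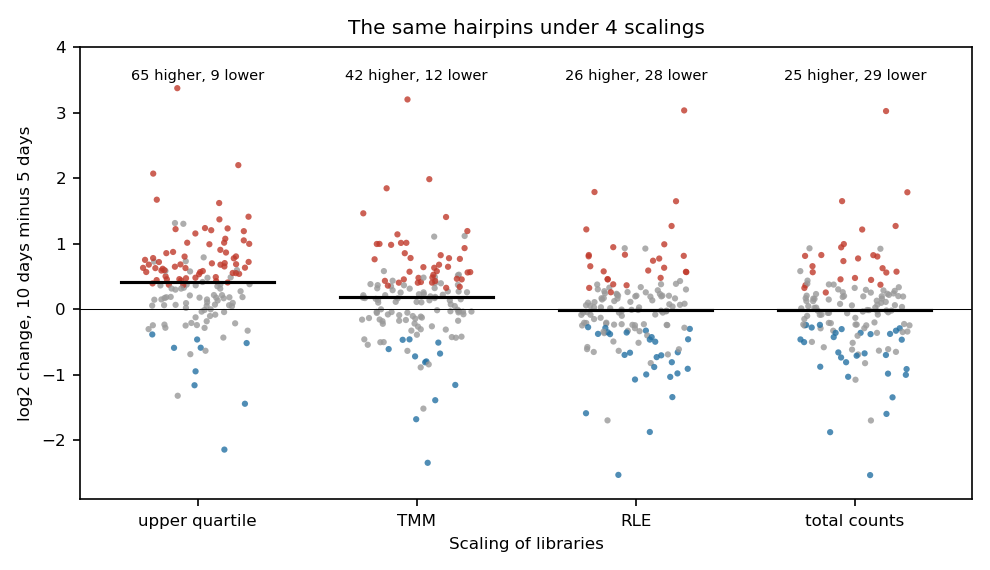
Log2 change between 5 and 10 days (vertical axis) of the 145 tested hairpins under 4 ways of scaling libraries (horizontal axis), 1 point per hairpin, red where higher and blue where lower at an adjusted p under 0.05, grey where not passed. Black lines are medians, which run from 0.41 with upper quartiles to -0.02 with total counts, while the spread of the points around them is alike.

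The steepest falls above 50 CPM were those of mir-237 and mir-230, both on chromosome X. mir-237 is the relative of lin-4 that shares its seed, and its hairpin lies between protein-coding genes at X, 8154084 to 8154182, plus strand, in WBcel235. Its 6 values were 16793, 14112 and 12012 CPM at 5 days and 4736, 3896 and 4752 CPM at 10 days. The lowest 5-day library thus stood far above the highest 10-day library. The fall was 3.21-fold (log2 change -1.68 ± 0.14 (SE), adjusted p = 7.15e-08), or -1.87 relative to the median hairpin. In whole animals, fewer cells of a type and less RNA per cell cannot be told apart, here and in what follows. mir-230 (X, 5803892 to 5803989, plus strand, between protein-coding genes) held 413, 530.1 and 454 CPM at 5 days and 158, 136 and 237 CPM at 10 days. It fell 2.62-fold (log2 change -1.39 ± 0.19 (SE), adjusted p = 2.61e-05; -1.58 relative to the median). Both calls held with 4 scalings and in each of the 21 other fits.

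let-7 and mir-60 fell by smaller amounts. let-7, which drives the passage from larva to adult, held 1444, 1379.9 and 1295 CPM at 5 days and 1051, 813 and 837 CPM at 10 days, again with no overlap. Its fall was 1.53-fold (log2 change -0.61 ± 0.13 (SE), adjusted p = 0.00136), or -0.80 relative to the median. The call held with 4 scalings but not in a fit that adds lane as a fixed term and has 1 residual degree of freedom (adjusted p = 0.221). mir-60 (II, 6328702 to 6328799, minus strand, between protein-coding genes) is made mainly in the intestine. Its values were 3123, 2505 and 3005 CPM at 5 days and 2061, 1689 and 1646 CPM at 10 days, and every 10-day library was below every 5-day library. It fell 1.60-fold (log2 change -0.68 ± 0.15 (SE), adjusted p = 0.00136; -0.86 relative to the median), a call that all 21 other fits kept.

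For 3 abundant hairpins the fall depended on the scaling. mir-70 (V, 6665536 to 6665635, minus strand, in an intron of pmp-5 on the same strand) held 29992, 31892 and 27419 CPM at 5 days and 20802, 19577 and 22259 CPM at 10 days, with a log2 change -0.51 ± 0.11 (SE; adjusted p = 0.00133). mir-51, of the family related to miR-100, held 23748, 23677 and 23378 CPM at 5 days and 17490.2, 16883 and 17013 CPM at 10 days, with a log2 change -0.46 ± 0.10 (SE; adjusted p = 0.00173). mir-235, the worm relative of miR-92, held 4945, 7339.6 and 6079 CPM at 5 days and 4201, 4027 and 5037 CPM at 10 days, and here the ages overlapped, though not in CPM from total counts alone (log2 change -0.47 ± 0.15 (SE), adjusted p = 0.0156). All 3 were changed with TMM, RLE and total counts but not with upper quartiles, where the adjusted p was 0.104, 0.188 and 0.26. For mir-235 the call was also lost when 5-day replicate 3 or 10-day replicate 1 was left out.

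**Figure D2:**
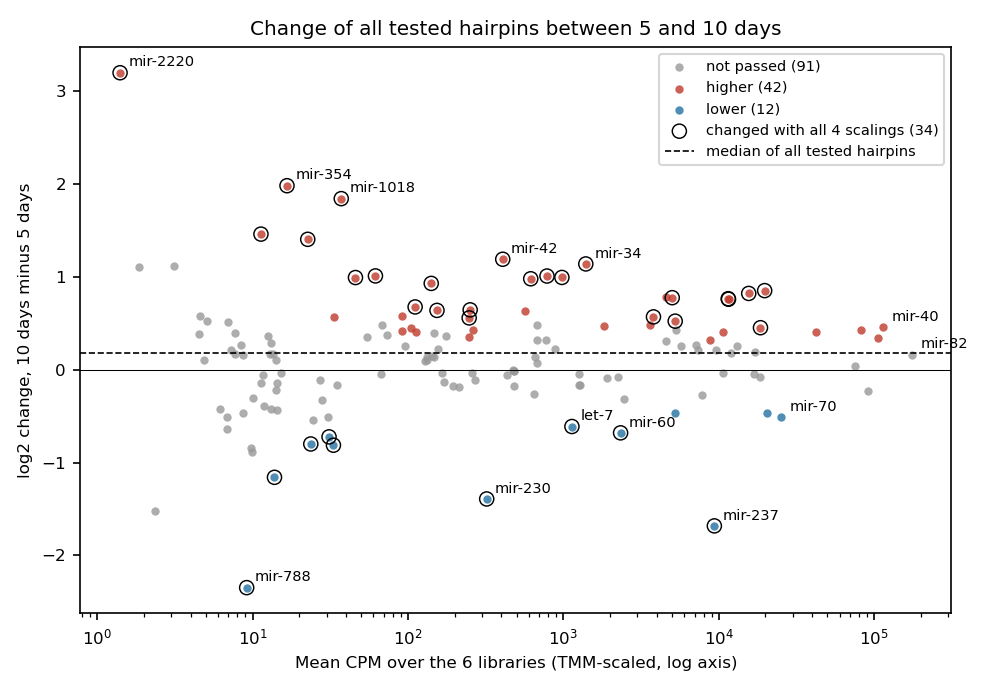
Log2 change between 5 and 10 days (vertical axis) against mean CPM over the 6 libraries (horizontal axis, log scale) for the 145 tested hairpins. Rings mark the 34 changed with all 4 scalings, and the dashed line is the median of 0.19; mir-237 and mir-230 stand lowest among the hairpins above 50 CPM.

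mir-42 had the largest rise among hairpins of at least 50 CPM. It is a member of the mir-35 family, which is made in oocytes and embryos and is needed for embryos to survive. mir-42 held 287, 209 and 247 CPM at 5 days and 626, 535 and 542 CPM at 10 days. Each 10-day value thus exceeded each 5-day value, and the rise was 2.28-fold (log2 change 1.19 ± 0.14 (SE), adjusted p = 1.47e-05; 1.01 relative to the median). mir-34, known from work on DNA damage (X, 2969752 to 2969848, minus strand, between protein-coding genes), held 937, 919.7 and 757 CPM at 5 days and 2233, 1759 and 1772 CPM at 10 days. It rose 2.20-fold (log2 change 1.14 ± 0.14 (SE), adjusted p = 1.47e-05; 0.95 relative to the median). mir-231 rose from 40.7 ± 4.40 to 82.9 ± 17.5 CPM (SD, n = 3 each), a 2.02-fold rise. mir-1022 had 91.9, 115 and 85.0 CPM at 5 days and 195, 171 and 189 CPM at 10 days, with no overlap, and rose 1.91-fold. These 4 calls held with 4 scalings and in each of the 21 other fits.

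The mir-35 family was followed member by member. With TMM 7 of its 8 members were higher at 10 days, beside 29.0% of all tested hairpins, with a median log2 change over all 8 of 0.65 against 0.19 for all tested hairpins. With 4 scalings the count was 4 of 8, beside 17.2% of all: mir-37, mir-38, mir-39 and mir-42. mir-38 held 604, 533 and 427 CPM at 5 days and 1083, 1123 and 944 CPM at 10 days, a rise of 2.01-fold. mir-37 rose from 14095 ± 1863 to 25457 ± 1139 CPM and mir-39 from 11281 ± 1339.7 to 19948 ± 641 CPM (SD, n = 3 each). The log2 changes of these 4 were 0.82 or more and those of the other members 0.48 or less. mir-40, the most abundant of the family, held 97842, 93835 and 96333 CPM at 5 days and 134902, 117265 and 144605 CPM at 10 days. Its log2 change of 0.46 was only 0.28 above the median hairpin, and with RLE factors the adjusted p was 0.109. mir-35 and mir-36 had log2 changes of 0.43 and 0.48 and also lost their calls with RLE factors (adjusted p = 0.183 and 0.0984). For mir-41 the threshold was missed, at 0.37 ± 0.21 (log2, SE; adjusted p = 0.177). As a share of all counts, which needs no scaling factor, the family held 20.8%, 19.0% and 21.1% at 5 days and 24.1%, 25.7% and 25.6% at 10 days. The oocyte and embryo markers thus made up more of each 10-day library than of any 5-day library, and the part of that in the changes of other hairpins was not tested.

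A ratio of counts within a library is free of scaling. The ratio of mir-42 to mir-40 was 0.00294, 0.00223 and 0.00257 at 5 days and 0.00464, 0.00456 and 0.00375 at 10 days. It rose 1.68-fold with no overlap. For the 9 ratios compared, 3 against 3 libraries cannot go below p = 0.1 in a two-sided exact permutation test. This ratio reached that value (adjusted p = 0.129 over the 9), as did 6 others. For mir-43 to mir-42, neighbours in the genome, and mir-786 to mir-240 the exact p was 0.5, with folds of 1.16 and 1.15 and overlapping ages.

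**Figure D3:**
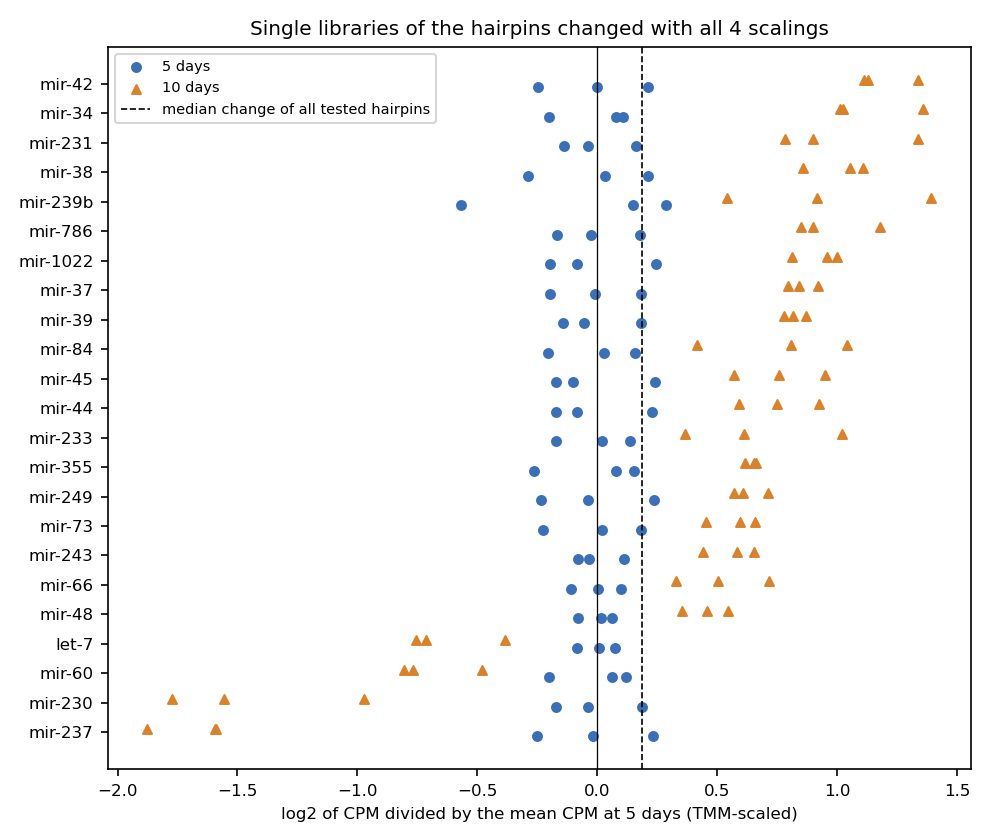
The 23 hairpins changed with all 4 scalings and of at least 50 CPM (rows), each library placed by the log2 of its CPM over the 5-day mean (horizontal axis), with circles for 5 days, triangles for 10 days and a dashed line at the median change of all tested hairpins. In each row the circles and triangles are apart, 19 rows to the right and 4 to the left.

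The timing miRNAs moved in different directions. In the let-7 seed family, mir-84 and mir-48, which act with let-7 at the larval transitions, were higher, let-7 was lower, and mir-795 was higher with TMM (log2 change 0.45) but not with RLE factors (adjusted p = 0.128). mir-84 held 3771, 4126 and 3216 CPM at 5 days and 7614, 4938 and 6491 CPM at 10 days, up 1.71-fold at 10 days (log2 change 0.78 ± 0.16 (SE), adjusted p = 0.00101). mir-48 held 16368, 15857 and 14853 CPM at 5 days and 21564, 20036 and 22858 CPM at 10 days, with no overlap (log2 change 0.45 ± 0.11 (SE), adjusted p = 0.00284; 0.27 relative to the median). mir-48 was no longer called when no filter was set or when 50 CPM was required. mir-241, the neighbour of mir-48 on chromosome V, held 517, 469.7 and 469.7 CPM at 5 days and 513, 438 and 497 CPM at 10 days, where the ages overlapped (log2 change -0.0098, adjusted p = 0.955). mir-793 (-0.033) and mir-794 (0.13) did not pass. In all, 3 of 7 members were higher and 1 lower, beside 29.0% and 8.28% of all tested hairpins, with a median log2 change of 0.13 against 0.19 for all tested hairpins. The ratio of let-7 to mir-84 was 0.383, 0.334 and 0.403 at 5 days and 0.138, 0.165 and 0.129 at 10 days, a fall of 2.60-fold. That of let-7 to mir-48 fell 2.10-fold (exact p = 0.1, adjusted p = 0.129 over the 9 ratios, for both). As a family, the let-7 group made up 2.24% ± 0.051 of counts at 5 days and 2.67% ± 0.085 at 10 days (SD, n = 3 each).

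In the lin-4 family, lin-4 itself held 665, 661 and 545 CPM at 5 days and 700.1, 616 and 746 CPM at 10 days, values that overlapped (log2 change 0.14 ± 0.12 (SE), adjusted p = 0.392). mir-237 fell, as given above. The ratio of mir-237 to lin-4 was 25.2, 21.4 and 22.0 at 5 days and 6.76, 6.32 and 6.37 at 10 days. mir-237 thus still had the higher count of the pair, by a ratio that had fallen 3.52-fold (exact p = 0.1, adjusted p = 0.129). The family's share of counts went from 1.54% ± 0.18 to 0.464% ± 0.023 (SD, n = 3 each).

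**Figure D4:**
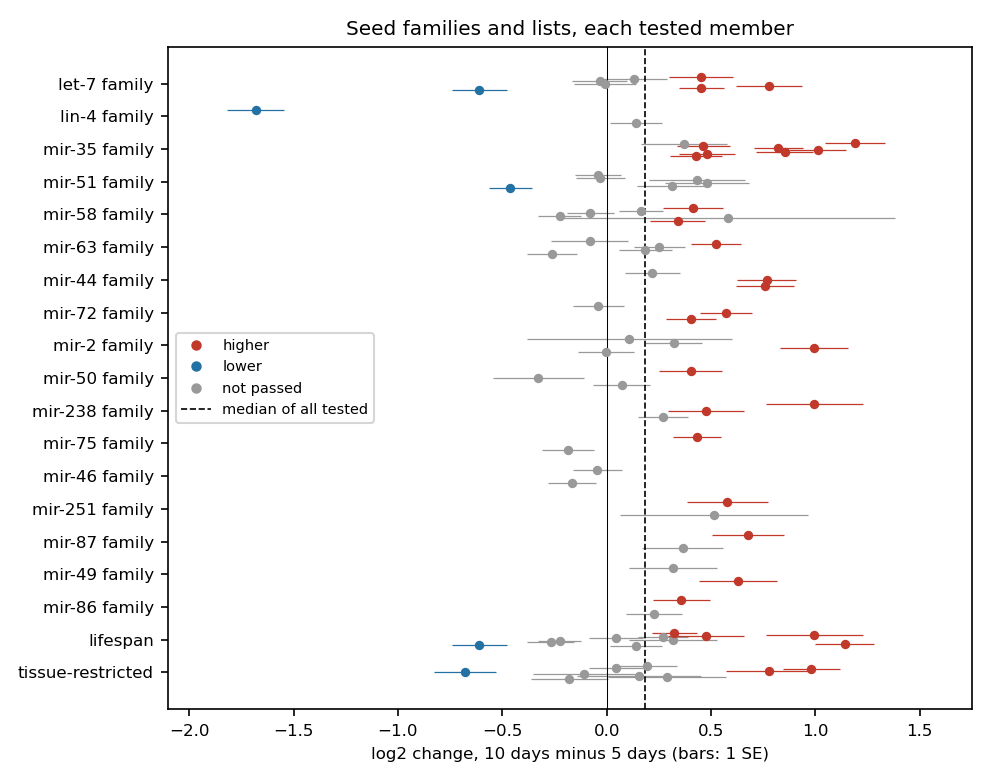
Log2 change between 5 and 10 days (horizontal axis, bars of 1 SE) of each tested member of 17 seed families and 2 functional lists (rows), coloured by call, with the median of all 145 hairpins dashed. The let-7 and lin-4 families have members on both sides of 0, while all mir-35 members lie to the right of the dashed line.

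Among miRNAs reported to affect lifespan, 4 of 11 tested were higher and 1 lower with TMM, near the 29.0% and 8.28% of all tested hairpins, with a median log2 change of 0.27 against 0.19 for all hairpins. With 4 scalings 2 were higher, mir-34 and mir-239b, and 1 was lower, let-7, near the 17.2% and 6.21% of all tested hairpins. mir-239b (X, 11791302 to 11791399, minus strand) lies beside mir-239a (X, 11792445 to 11792542, plus strand), and loss of the pair has been reported to lengthen life. mir-239b held 798, 726 and 442 CPM at 5 days and 1238, 1720.5 and 953 CPM at 10 days. The 10-day libraries spread widely and the lowest of them was still above the highest 5-day library (log2 change 0.99 ± 0.23 (SE), adjusted p = 0.0024). mir-239a held 1889, 1532 and 1197 CPM at 5 days and 2128, 2674 and 1619.7 CPM at 10 days, which overlapped, and its call with TMM (log2 change 0.48 ± 0.18 (SE), adjusted p = 0.0472) was lost with RLE factors (adjusted p = 0.206). The ratio of mir-239b to mir-239a went from 0.423, 0.474 and 0.369 to 0.582, 0.643 and 0.589, a rise of 1.44-fold without overlap. mir-238, of the same seed family, had a log2 change of 0.27 and did not pass (adjusted p = 0.0854).

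mir-246, whose loss shortens life, held 8142, 8401 and 7042 CPM at 5 days and 9596, 9645 and 10287 CPM at 10 days. Its change with TMM (log2 change 0.32 ± 0.11 (SE), adjusted p = 0.0246) was 0.14 relative to the median and did not pass with RLE factors (adjusted p = 0.226). mir-71, which acts in neurons to lengthen life, held 8749, 8730.5 and 8003 CPM at 5 days and 7930.5, 6630.4 and 6607 CPM at 10 days. Although the ages did not overlap, the log2 change of -0.27 missed the threshold with TMM (adjusted p = 0.0751) and passed as lower with RLE factors (-0.47, adjusted p = 7.61e-04). mir-80 showed the same pattern, with -0.22 by TMM (adjusted p = 0.0981) and -0.43 by RLE (adjusted p = 0.00295). mir-228 (0.046), mir-83 (0.32) and lin-4 did not pass. For mir-83 replicate 2 of the 5-day group stood apart, with 950.0, 396 and 731 CPM at 5 days and 972, 840.5 and 783 CPM at 10 days. The 11 hairpins together held 20.9% ± 1.28 of counts at 5 days and 17.5% ± 0.42 at 10 days (SD, n = 3 each). Most of this share lay in mir-80, with means of 98623.5 and 84407.5 CPM at 5 and 10 days, and mir-228, with 74316 and 76706 CPM. The share therefore does not describe the rarer members.

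Tissue-restricted miRNAs were all detected, though those of neurons were rare. lsy-6, of the ASE taste neurons, had counts of 13, 16 and 27 at 5 days and 13, 27 and 15 at 10 days, and mir-124, of sensory neurons, had 11, 13 and 14 at 5 days and 9, 12 and 13 at 10 days. Neither passed, and at these counts only large changes were detectable. Of the 9 on the list, 2 were higher and 1, the intestinal mir-60, was lower, near the 29.0% and 8.28% of all tested hairpins, with a median log2 change of 0.16. mir-786 (X, 7882751 to 7882840, plus strand), which is needed in the intestine for a regular defecation rhythm, held 369, 407 and 469 CPM at 5 days and 939, 748 and 773 CPM at 10 days, with no overlap. It rose 1.97-fold (log2 change 0.98 ± 0.14 (SE), adjusted p = 3.21e-05; 0.79 relative to the median). Its neighbour mir-240 held 3304, 3915 and 2831 CPM at 5 days and 5761, 5183 and 6303 CPM at 10 days, a rise of 1.72-fold whose call was lost with total counts, with a minimum of 50 CPM and without replicate 3 of the 5-day group. The intestinal mir-60 was thus lower and mir-786 higher in each 10-day library. mir-240 and mir-786 were listed here for intestine and gonad, and the tissues cannot be told apart in whole animals. The muscle miRNA mir-1 held 680.4, 432 and 414 CPM at 5 days and 519.9, 473 and 359 CPM at 10 days, which overlapped (log2 change -0.18, adjusted p = 0.472). The ratio of mir-60 to mir-1 fell 1.44-fold, from 4.59, 5.80 and 7.26 to 3.96, 3.57 and 4.59, with the nearest libraries of the ages all but equal (exact p = 0.1, adjusted p = 0.129). The posterior mir-57 (0.19), the glial mir-228 and mir-791 of carbon dioxide sensing neurons (-0.11) did not pass.

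The most abundant hairpins kept a like joint share. The 8 highest over the 6 libraries held 68.9% ± 1.49 of counts at 5 days and 68.7% ± 0.60 at 10 days (SD, n = 3 each). They were mir-82, mir-40, mir-58a, mir-80, mir-35, mir-228, mir-72 and mir-70. mir-82, of the bantam-related mir-58 family, held 168110.0, 176358 and 151499 CPM at 5 days and 186500.0, 171706 and 197436 CPM at 10 days, which overlapped (log2 change 0.16, adjusted p = 0.247). mir-58a of the same family held 108232, 88653 and 85029.6 CPM at 5 days and 124491, 117355 and 114930.0 CPM at 10 days, and its call with TMM (log2 change 0.34 ± 0.13 (SE), adjusted p = 0.0484) was lost with RLE factors (adjusted p = 0.391). mir-2209a was higher with TMM (log2 change 0.41) and not with RLE (adjusted p = 0.206). mir-81 (-0.079) and mir-80 did not pass, nor did the rare mir-58b, with counts of 12, 0 and 4 at 5 days and 12, 3 and 4 at 10 days. The 6 tested members thus gave 2 higher and 0 lower with TMM and no call that held with 4 scalings, beside 29.0%, 8.28% and 23.4% of all tested hairpins. Together they held 39.1% ± 0.45 of counts at 5 days and 36.7% ± 0.26 at 10 days.

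In the mir-44 family, related to miR-279, mir-44 and mir-45 rose 1.69-fold and 1.70-fold. mir-44 held 8095, 10059 and 7631 CPM at 5 days and 16287, 12925 and 14452 CPM at 10 days, and the ages were apart. The 2 counts were nearly equal throughout, at a ratio of 0.990 to 1.02, and reads of one may have been counted for the other too, which leaves both values uncertain. mir-61 had a log2 change of 0.22 and did not pass. In the mir-72 family, related to miR-31, mir-73 rose from 3064 ± 429 to 4548 ± 328 CPM (SD, n = 3 each), with an adjusted p of 0.00141 for a log2 change of 0.57. mir-72 held 32582, 41499.7 and 35335 CPM at 5 days and 49043, 43736 and 51907 CPM at 10 days and passed with TMM (log2 change 0.40) but not with RLE factors (adjusted p = 0.149), and mir-74 (-0.039) did not pass. Of the mir-63 family mir-66 alone passed with TMM, with 4614, 4314 and 3998 CPM at 5 days and 7073, 5401 and 6113 CPM at 10 days (log2 change 0.52 ± 0.12 (SE), adjusted p = 0.00234), and its relatives mir-63 (-0.26), mir-64 (0.19), mir-65 (0.25) and mir-229 (-0.082) did not. With TMM 2 of 3 tested mir-44 members, 2 of 3 mir-72 members and 1 of 5 mir-63 members were higher. Beside these stand 29.0% of all tested hairpins, so counts this small are not read as traits of the families.

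In the mir-51 family mir-51 was lower with TMM and none of the other 5 passed. That made 0 of 6 higher and 1 lower, beside 29.0% and 8.28% of all tested hairpins. mir-52 (0.31), mir-53 (0.48) and mir-54 (0.43) had positive log2 changes, and for all 3 the highest value was that of replicate 1 at 10 days, as in mir-54 with 5296, 4654 and 3521 CPM at 5 days and 7929, 4361 and 5899 CPM at 10 days. mir-55 (-0.03) and mir-56 (-0.043) lay below the median hairpin. The ratio of mir-52 to mir-51 rose 1.70-fold, from 0.212, 0.153 and 0.153 to 0.363, 0.227 and 0.294 (exact p = 0.1, adjusted p = 0.129). In the mir-2 family mir-43 was higher, and mir-2 (-0.0036), mir-250 (0.32) and mir-797 (0.11) did not pass. In the mir-50 family mir-90 was higher with TMM (0.40) and not with RLE (adjusted p = 0.245), and mir-50 (0.072) and mir-62 (-0.33) did not pass. With TMM 1 of 4 mir-2 members and 1 of 3 mir-50 members were thus higher, near the 29.0% of all tested hairpins.

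The seed pairs below mostly had 1 member over the threshold with TMM, where 37.2% of all tested hairpins passed, so this is not read as a trait of the pairs. Of their members only mir-233 held with 4 scalings. mir-233 rose 1.60-fold, with 86.4, 93.5 and 75.6 CPM at 5 days and 173, 109.6 and 130.0 CPM at 10 days, while its partner mir-87 (0.36, adjusted p = 0.159) did not pass. Of mir-49 and mir-83, the relatives of miR-29, mir-49 was higher with TMM (0.63) and not with RLE (adjusted p = 0.0984). The same held for mir-79 (0.43, RLE adjusted p = 0.0838) beside mir-75 (-0.19), for mir-252 (0.58) beside mir-251 (0.51), and for mir-785 (0.36, RLE adjusted p = 0.27) beside mir-86 (0.23). mir-46 (-0.17) and mir-47 (-0.046) both missed the threshold. Whether partners differed from each other was not tested. Outside the lists, mir-355, which has been tied to the insulin receptor daf-2, held 218, 207 and 163 CPM at 5 days and 311, 309 and 301 CPM at 10 days, with no overlap (log2 change 0.65 ± 0.12 (SE), adjusted p = 5.33e-04). mir-249 (0.64) and mir-243 (0.56), the latter known to enter the Argonaute RDE-1, also rose with 4 scalings.

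Hairpins that lie together in the genome can share a primary transcript. No cluster had both higher and lower calls with TMM, but with only 12 of 145 hairpins lower such a mix had little room to occur. Calls in 1 direction were not particular to the 2 chromosome II clusters given first. On chromosome X, mir-240 with mir-786 and mir-359 with mir-785 were also all higher with TMM. The call of mir-786 held with 4 scalings, whereas those of mir-240, mir-359 and mir-785 did not. Names were matched to 1 place each in WBcel235, and neighbours on 1 strand with gaps of at most 10000 bases were joined. In the cluster from mir-42 to mir-44 (II, 11889811 to 11890118, plus strand) all 3 were higher, by 1.19, 0.99 and 0.76 on the log2 scale. mir-43, of the mir-2 seed family, held 29.8, 35.3 and 27.6 CPM at 5 days and 61.9, 66.1 and 55.0 CPM at 10 days. In the cluster from mir-35 to mir-41 (II, 11537608 to 11538404, plus strand, opposite to Y62F5A.9, in whose intron it lies) 6 of 7 were higher with TMM, beside 29.0% of all tested hairpins, and log2 changes ran from 0.37 to 1.01. With 4 scalings the calls of mir-37, mir-38 and mir-39 held in this cluster. Elsewhere some neighbours had like values and others unlike ones. mir-240 had 0.78 and mir-786 0.98 (X, 7882622 to 7882840, plus strand). The log2 change was -1.39 for mir-230, while mir-791, downstream at X, 5809349 to 5809433, had -0.11. mir-51 had -0.46 and its neighbour mir-53 0.48 (IV, 11026013 to 11027691, minus strand). mir-73 had 0.57 and mir-75 -0.19 (X, 2368765 to 2372549, plus strand). The remaining named neighbours were mir-785 and mir-359 (X, 0.36 and 0.40), mir-228 and mir-790 (IV, 0.046 and -0.18) and mir-2208a with mir-2208b (IV, 1.41 and 1.12), each pair with its log2 changes. Apart from the ratios of mir-43 to mir-42 and mir-786 to mir-240 given above, differences within clusters were not tested.

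Some of the largest changes belonged to rare hairpins, which the 50 CPM rule did not name and which were picked after their values were seen. mir-788 (X, 8485294 to 8485371, minus strand) had counts of 21, 25 and 25 at 5 days and 3, 5 and 3 at 10 days, which is 5.08-fold lower at 10 days (log2 change -2.35 ± 0.36 (SE), adjusted p = 6.09e-05). mir-1018 (X, 1879458 to 1879513, plus strand) had counts of 36, 19 and 20 at 5 days and 67, 74 and 72 at 10 days, which is 21.9, 14.9 and 11.0 CPM at 5 days and 74.1, 48.0 and 53.5 CPM at 10 days. It rose 3.59-fold (log2 change 1.84 ± 0.24 (SE), adjusted p = 2.42e-05). In the same cluster, mir-2220 had counts of 0, 0 and 1 at 5 days and 2, 3 and 5 at 10 days, too few for a fold to be given, though it passed (adjusted p = 0.0156), except with lane as a fixed term or without replicate 3 of the 10-day group. mir-2208a had counts of 25, 17 and 16 at 5 days and 31, 51 and 42 at 10 days and rose 2.65-fold. mir-354, annotated within an exon of the ribosomal protein gene rps-20, had counts of 8, 12 and 11 at 5 days and 24, 28 and 47 at 10 days and rose 3.95-fold, and reads of that messenger RNA cannot be told apart from it in this table. mir-4937 rose from 5.84 ± 1.33 to 16.8 ± 2.71 CPM (SD, n = 3 each). mir-78, mir-67, mir-1832a and mir-789-1 were lower, with log2 changes of -1.16, -0.81, -0.80 and -0.72. The first 3 of these lost their calls with lane as a fixed term, and mir-1832a also without replicate 3 of the 10-day group. Reads of mir-789-1 may be shared with its copy mir-789-2, which had -0.43 and did not pass. All of these except mir-789-2 held with 4 scalings.

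A number after the letter L in each label, read here as a sequencing lane, was 3, 4 and 5 at 5 days and 5, 6 and 7 at 10 days. Only lane 5 held a library of both ages, and lanes 1, 3 and 7 joined other ages. A fit with lane as a fixed term, which has 1 residual degree of freedom, called 62 hairpins, 52 higher and 10 lower, with a median log2 change of 0.35. There mir-237 had a log2 change of -1.40, mir-230 -1.47, mir-34 1.38 and mir-42 1.28, and all 4 passed. Of the hairpins whose calls held with 4 scalings, let-7, mir-67, mir-78, mir-1832a and mir-2220 did not pass in that fit.

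The step from 5 to 10 days was then set beside the steps before and after it, which lasted 4 and 10 days against its own 5. Each pair of steps shares the libraries of 1 age, and the difference was tested as 1 contrast of whole steps. Change per day was not tested, so a longer step can differ at a steady rate. Steps before and after differed for 50 hairpins (34.5%) and 32 (22.1%) with TMM, and for 27 and 20 in 1 direction with all 4 scalings. mir-230 was among the 20: it fell from 5 to 10 days and had a log2 change of 1.05 from 10 to 20 days (adjusted p of the difference = 1.40e-04). mir-60 was among the 27. It went from 1754 CPM at 1 day to the 5-day peak, a log2 change of 0.71, before the fall described above (adjusted p of the difference = 9.51e-04). let-7 was in both sets, with log2 changes of -1.46, -0.61 and -1.73 in the order of the steps, so its fall was smallest in the middle step (adjusted p of the differences = 0.00949 and 0.00201).

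Other hairpins with unlike steps included some that turned at 10 days. mir-48 and mir-66 rose from 5 to 10 days and had log2 changes of -0.89 and -0.66 from 10 to 20 days (adjusted p of the differences = 1.40e-04 and 5.64e-04). mir-70 had -0.51 and then the larger fall of -1.76 (adjusted p of the difference = 1.78e-04). mir-239b had 0.99 and then 2.33 (adjusted p of the difference = 0.0261), with the later step lasting 10 days against 5. mir-42, mir-39 and mir-43 had log2 changes of -0.22, 0.0029 and -0.55 from 1 to 5 days, before their rises (adjusted p of the differences = 9.51e-04, 0.00614 and 0.00101). mir-355 had risen by 1.78 from 1 to 5 days, more than the 0.65 that followed (adjusted p of the difference = 0.0013). mir-237 had log2 changes of -1.43, -1.68 and -1.66 in the 3 steps, and with TMM the differences between steps missed the threshold (adjusted p = 0.443 and 0.944). With RLE factors the middle step was the steeper of the first pair (difference -0.50, adjusted p = 0.0457).

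**Figure D5:**
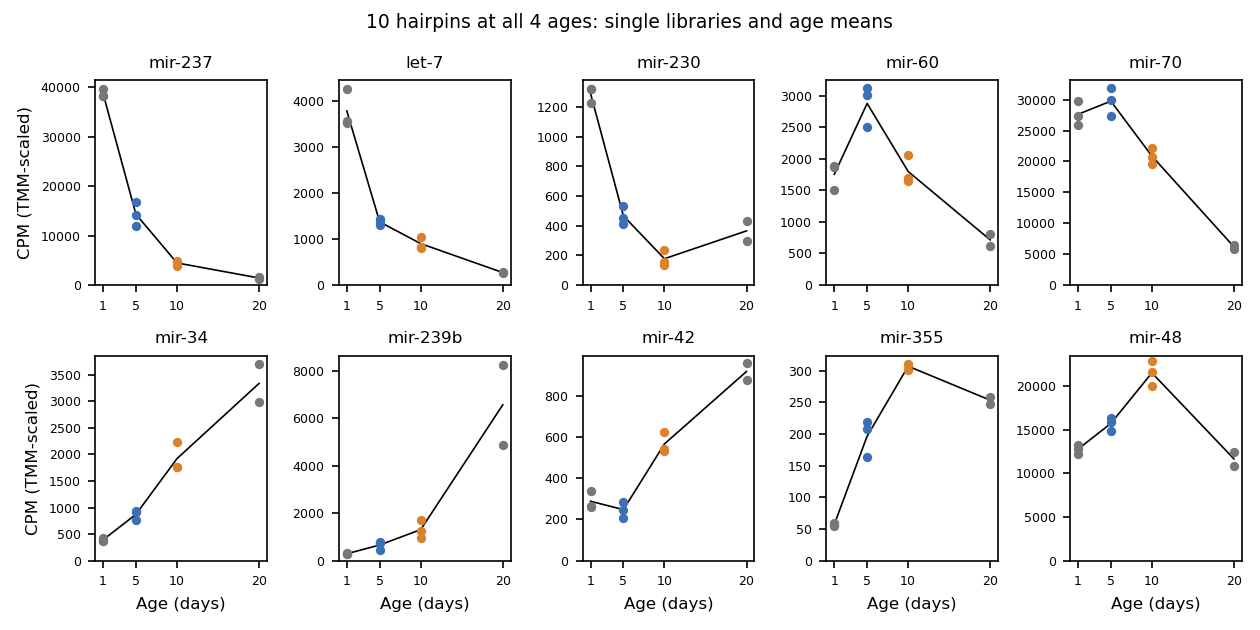
TMM-scaled CPM (vertical axes, from 0) of 10 hairpins against age in days (horizontal axes), 1 point per library with 5 days in blue and 10 days in orange, and lines through the age means. mir-230 is lowest at 10 days, mir-60 highest at 5 days and mir-48 highest at 10 days, while mir-237 and let-7 fall at each step.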

How the data were processed

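Total RNA of whole worms was made into small RNA libraries with a TruSeq kit, per the labels' protocols. The deposited table holds raw read counts per miRNA hairpin, in whole numbers with no normalization by the authors. The submitters' processing notes name BWA 0.7.12-r1039, Trimmomatic 0.36, SAMtools 1.3.1-9 and CASAVA 1.8.4. The sources used here give neither a genome build nor a rule for counting reads or for those that fit several hairpins. Hairpins were counted whole, so arms cannot be told apart. Reads carry no molecular identifiers that the labels name, so PCR copies are not independent molecules.

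Groups were taken from the age label, and replicate numbers follow accession order and pair nothing. Hairpins were kept by edgeR's filterByExpr (minimum count 10, total 15), which left 145 of 250. Counts were scaled by TMM and tested with edgeR 4.0.16 in R 4.3.3 (quasi-likelihood F-test, 1 fit to all 11 libraries, Benjamini-Hochberg over 145 hairpins, threshold 0.05). The common biological coefficient of variation was 12.5%. Differences between steps were contrasts in that fit. The 9 ratios used exact permutation tests, two-sided. The 21 other fits used total-count, upper quartile and RLE scaling, other filters, robust fitting, DESeq2 1.42.0, limma 3.58.1 (voom), lane as a term, the 6 libraries alone and leaving out each library. The edgeR steps were tested on simulated data.

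Named hairpins are the 12 largest rises and falls among those changed with a mean of at least 50 CPM, all changed with 4 scalings at that level, the 8 most abundant, members of 19 lists and cluster neighbours. The members and lists were chosen with earlier results of these data known. Names were placed in Ensembl release 115 (WBcel235) for 245 of 250 hairpins by name only; no coordinates were read from the table.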

Additional observations from a re-analysis of the deposited data

How the results depend on the processing

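The counts of changed hairpins moved with the scaling, the filter and the libraries fitted. Against 42 higher and 12 lower with TMM, there were 26 and 28 with RLE, 25 and 29 with total counts, 26 and 22 without a filter, 19 and 26 with a mean of at least 50 CPM, 26 and 27 with DESeq2, and 27 and 20 with the 6 libraries alone, while upper quartiles gave 65 higher. As TMM references, tried after the data were seen, the 5-day libraries gave 26 higher each with 24, 24 and 23 lower, and the 10-day libraries 26, 25 and 25 higher with 24, 20 and 24 lower. The 1-day libraries gave 36, 32 and 25 higher with 16, 17 and 21 lower, and replicate 1 at 20 days gave 41 and 16. The causes were not tested. Leaving out each library in turn gave 41 to 60 changed, 29 to 46 higher and 11 to 18 lower. Step differences numbered 59 with upper quartiles against 32 for the later step (24 to 35 with a library left out), and 33 with a mean of at least 50 CPM against 50 for the earlier step (33 to 56). The 33 came without replicate 3 of the 5-day group. No named hairpin changed sign past the threshold. No paired analysis was possible because the labels carry no replicate numbers. With 3 libraries an age and low counts, only large changes of rare hairpins were detectable.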
